A study of Mus musculus with 34 samples.

Results

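In the 3T3-L1 preadipocyte line, 1761 of 87525 KDM5A peaks lay within 1000 bp of an annotated transcription start site and shared no base with any of the 10702 peaks in the deposited H3K4me3 promoter table. They are called unlisted peaks here. The other 9812 of the 11573 KDM5A promoter peaks shared at least 1 base with a listed H3K4me3 peak and are called listed peaks. Membership rests on the positions of called peaks, with no further cutoff on tags. Both sets of peaks were called from ChIP signal, so KDM5A tags and ratios to Input are not independent of membership. The H3K4me3 table holds promoter peaks merged over libraries, all within 3000 bp of a start site, so an unlisted peak is one with no entry there. H3K4me3 signal outside the listed peaks was not analysed here.

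The series has 34 libraries of 3T3-L1, a mouse line that turns into fat cells when induced with insulin, dexamethasone, IBMX and foetal bovine serum. KDM5A ChIP was made at day 0 (2 days after the cells became confluent), at 4 hours and at day 2 of induction, with 2 libraries per time and no transduction stated, and 1 Input library of the same line, with no time stated, served for all of them. RNA came from shKdm5ABC cells, which received lentiviral constructs against Kdm5a, Kdm5b and Kdm5c, and from shLuc control cells, which received a luciferase construct. Both were transduced for 24 hours, 4 days before induction, and RNA was read at day 0, 4 hours and day 2 with 2 libraries per group. KDM5C ChIP was made at day 2 with 2 libraries and no transduction stated. Before every ChIP the cells were crosslinked first with DSG (0.2 mM, 45 min) and afterwards with formaldehyde (1%, 10 min). The H3K4me3 table is built on 12 libraries of shKdm5ABC and shLuc cells at the same 3 times. In their titles the 2 libraries of a group are numbered exp 1 and exp 2, the replicate number used here. Nothing in the labels says that they came from separate cultures, so p-values here measure the spread between these libraries, which may be technical.

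KDM5A is a histone demethylase that removes methyl groups from lysine 4 of histone H3, and KDM5B and KDM5C act on the same residue. The trimethylated form, H3K4me3, marks the starts of active and poised genes, most of them with CpG-rich promoters, and a PHD finger of KDM5A binds it. Preadipocytes express matrix and fibroblast genes, and induction turns on factors of the C/EBP family and PPARg, which activate the genes of lipid storage.

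Windows of 250 bases before to 50 bases after the start are printed for 6 unlisted peaks that the results below turn on. Mdm2, Fam129b, Irs1 and Spef1 are among the strongest unlisted peaks, the Cd68 transcript changed on KDM5 depletion, and Adig had much KDM5C. Sequences are from RefSeq on GRCm38.p6, read 5′ to 3′ on the strand of the gene, with each CG in capitals. Their coordinates are chr10:117710709-117711008 on the minus strand for Mdm2, chr2:32875884-32876183 on the plus strand for Fam129b, chr1:82291390-82291689 on the minus strand for Irs1, chr2:131174761-131175060 on the minus strand for Spef1, chr11:69666121-69666420 on the minus strand for Cd68 and chr2:158502362-158502661 on the plus strand for Adig.
Mdm2: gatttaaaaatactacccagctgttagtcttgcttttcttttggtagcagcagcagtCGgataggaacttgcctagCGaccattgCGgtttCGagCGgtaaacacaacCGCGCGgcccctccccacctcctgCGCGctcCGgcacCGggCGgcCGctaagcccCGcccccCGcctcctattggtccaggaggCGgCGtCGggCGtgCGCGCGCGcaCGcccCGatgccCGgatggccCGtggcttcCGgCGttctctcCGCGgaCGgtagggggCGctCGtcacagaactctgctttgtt
Fam129b: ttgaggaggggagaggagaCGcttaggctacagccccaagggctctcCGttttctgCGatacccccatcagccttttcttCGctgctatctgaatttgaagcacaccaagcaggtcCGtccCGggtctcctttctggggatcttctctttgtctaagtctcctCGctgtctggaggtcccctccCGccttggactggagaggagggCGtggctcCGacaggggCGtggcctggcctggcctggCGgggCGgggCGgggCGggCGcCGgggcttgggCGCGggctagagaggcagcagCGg
Irs1: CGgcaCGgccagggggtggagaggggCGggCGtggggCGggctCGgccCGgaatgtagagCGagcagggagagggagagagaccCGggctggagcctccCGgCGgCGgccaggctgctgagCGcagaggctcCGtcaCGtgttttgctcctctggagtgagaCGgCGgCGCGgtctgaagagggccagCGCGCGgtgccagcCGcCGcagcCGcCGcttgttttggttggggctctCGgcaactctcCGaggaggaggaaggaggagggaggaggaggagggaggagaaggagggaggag
Spef1: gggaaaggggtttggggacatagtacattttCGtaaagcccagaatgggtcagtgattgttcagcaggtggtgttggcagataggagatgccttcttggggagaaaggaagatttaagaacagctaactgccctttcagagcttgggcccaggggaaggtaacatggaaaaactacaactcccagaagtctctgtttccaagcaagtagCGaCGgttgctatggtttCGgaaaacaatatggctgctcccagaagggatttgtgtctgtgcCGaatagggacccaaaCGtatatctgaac
Cd68: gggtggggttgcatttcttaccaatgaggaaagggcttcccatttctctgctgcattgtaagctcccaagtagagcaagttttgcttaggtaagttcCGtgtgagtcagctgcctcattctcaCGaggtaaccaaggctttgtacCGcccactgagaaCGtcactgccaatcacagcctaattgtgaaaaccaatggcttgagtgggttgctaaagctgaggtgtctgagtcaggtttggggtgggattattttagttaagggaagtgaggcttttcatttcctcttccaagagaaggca
Adig: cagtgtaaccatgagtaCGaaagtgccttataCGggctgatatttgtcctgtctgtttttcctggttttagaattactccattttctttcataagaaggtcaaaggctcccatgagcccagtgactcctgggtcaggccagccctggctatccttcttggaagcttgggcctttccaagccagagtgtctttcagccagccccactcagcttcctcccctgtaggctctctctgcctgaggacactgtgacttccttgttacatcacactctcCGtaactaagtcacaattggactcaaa
The first 3 windows were rich in CG, with 35 CG steps in Mdm2, 20 in Fam129b and 28 in Irs1. The others held 6 in Spef1, 4 in Cd68 and 3 in Adig. The ratio of observed to expected CG was 1.12, 0.633 and 0.827 in the first 3 and 0.368, 0.24 and 0.172 in the others. These windows were picked for the results below, and their split does not give the shares of the whole group.

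The 6 windows were searched on both strands for the E-box CACGTG, the GC box CCGCCC, the TATA box TATAAA, the CCAAT box, the cAMP element TGACGTCA, the ETS motif CCGGAAG, the AP-1 motif TGANTCA and the C/EBP motif TTGCNNAA, none of which contains another. CCGCCC was found in the Mdm2, Fam129b, Irs1 and Cd68 windows, and 35.6% of the windows of all 27025 genes hold it. CCAAT was in Mdm2, Cd68 and Adig, against 37.8% of all windows. CACGTG was in Irs1 (7.13% of all windows), CCGGAAG in Mdm2 (9.07%), and TGANTCA and TTGCNNAA in Cd68 (7.9% and 10.8%). None of these 8 letter strings was in the Spef1 window, and the palindrome that NRF1 is known to bind was in none of the 6 (0.966% of all windows). RefSeq windows were at hand for 994 of 1504 unlisted genes looked up, or 66.1%, so a comparison of CG content or motifs over the whole group is void and none is given.

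MicroRNA genes were the nearest annotated gene of 160 unlisted peaks (9.09%), against 66 listed peaks (0.673%). A microRNA record starts at the hairpin, which can lie far from the start of the longer transcript that carries it. Of the 146 microRNA genes, 130 had a mature sequence in RefSeq, and 25 of the peaks averaged at least 20 KDM5A tags. The mature sequences below belong to 5 of the microRNA genes with the most KDM5A tags, with the seed (bases 2 to 8) in capitals.
mmu-miR-6988-5p: gGGGUGGAgagcugaggccca
mmu-miR-7237-5p: aUGGUAGCuugugacaggacuggc
mmu-miR-6921-3p: uGACUACUccuugccucucag
mmu-miR-141-3p: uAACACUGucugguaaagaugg
mmu-miR-29a-3p: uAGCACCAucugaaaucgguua
Their seeds all differ. Among 251 pairs of a peak and a mature sequence, 6 seeds were shared by 2 or more genes, among them that of Mir194-1 and Mir194-2. A microRNA with several unlisted peaks, such as Mir5114, counts once per peak in the 251. At Mir6988, KDM5A tags were 57.55 and 35.22 at day 0, 77.88 and 69.75 at 4 hours and 106.68 and 104.37 at day 2, against 9.0 in Input, so all 6 libraries were above Input and the times did not overlap. At Mir29a, tags were 13.66 and 13.64 at day 0, 77.05 and 82.67 at 4 hours and 20.43 and 16.23 at day 2, against 5.4 in Input. Both 4-hour libraries of Mir29a stood above the other 4, but limma called no change between times at either peak. miR-141 belongs to the family that restrains epithelial-mesenchymal transition, and miR-29a targets transcripts of collagens.

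KDM5A tags at unlisted peaks were low. Tags are reads in a peak scaled to a library of 10000000. Over the 6 libraries the median unlisted peak averaged 6.08 tags (quartiles 4.31 and 10.9), against 192 (109 and 301) for listed peaks. The median unlisted peak held 35 reads over all 6 libraries together, against 1125 for listed peaks, so counting error limits single peaks. In width, 57.9% of unlisted peaks were exactly 500 bp, the smallest width in the table, against 2.57% of listed peaks, and the median widths were 500 and 1767 bp. Per kb, tags were 10.7 against 99.0. Unlisted peaks resembled the 75952 distal KDM5A peaks in these measures, which had a median of 6.42 tags and of 500 bp.

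Relative to Input, the unlisted peaks were enriched less than the listed ones. The median of log2((tags + 1)/(Input + 1)) was 2.14 for unlisted peaks and 3.70 for listed peaks, with 2.15 for distal peaks. For unlisted peaks it was 2.04 and 1.21 in the day 0 libraries, 2.17 and 1.70 at 4 hours and 2.38 and 2.44 at day 2. For listed peaks the same libraries gave 4.08 and 2.91, 3.90 and 3.17, and 4.08 and 3.67. Every library had a lower median at unlisted peaks, and the 2 libraries of day 0 differed from each other more than the times did. Tags exceeded Input in all 6 libraries at 980 unlisted peaks (55.7%), against 9671 listed peaks (98.6%). With 1 Input library no test against Input is possible, and the pseudocount of 1 holds down the ratio of low peaks. The 482 unlisted peaks with no Input read have a ratio that depends on it.

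**Figure D1:**
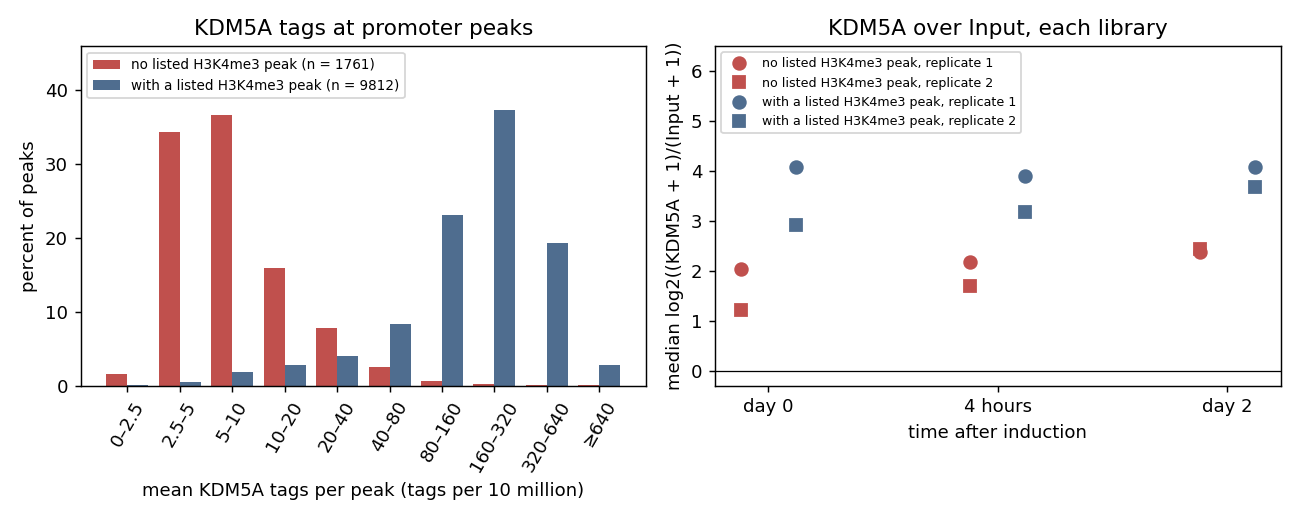
Left, percent of KDM5A promoter peaks in each range of mean tags (scaled as in the text, 6 libraries), for peaks without and with a listed H3K4me3 peak; most unlisted peaks lie below 10 tags and most listed peaks at 80 or more. Right, the median log2 ratio of KDM5A to Input in each library by time, as 1 point per library; in every library the unlisted median is below the listed one.

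At equal tags the classes differed less. Among peaks of 10 to 20 mean tags, the median log2 ratio to Input was 2.52 for 280 unlisted peaks and 2.65 for 277 listed peaks. Among peaks of 20 to 50 tags it was 2.79 for 163 unlisted and 2.93 for 574 listed peaks. Between replicates, the Pearson r of log2 tags across peaks was 0.67 at day 0, 0.59 at 4 hours and 0.46 at day 2 at unlisted peaks, against 0.96, 0.93 and 0.96 at listed peaks. The median absolute log2 difference between replicates was 0.93, 1.08 and 0.94 at unlisted peaks, against 1.21, 0.75 and 0.46 at listed peaks, so it was smaller at unlisted peaks on day 0 and larger at the other times. At the 203 unlisted peaks with at least 20 mean tags it was 0.79, 0.49 and 0.43. These are correlations across peaks of the same libraries, and peaks are not independent replicates. Before scaling, library totals ranged from 3870000 to 17600000 reads for KDM5A, with 11100000 for Input. Unlisted peaks held 0.133% to 0.303% of the KDM5A tags against 0.0281% of Input tags.

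Unlisted peaks lay on either side of the start site. The peak centre was upstream at 880 of them, against 2472 listed peaks (25.2%), and the median distance was 389 bp against 220 bp. The nearest listed H3K4me3 peak was a median of 25089 bp away. It was over 10 kb away at 1274 unlisted peaks (72.3%) and within 1000 bp at 102. The gene named by the KDM5A table had an entry of its own in the H3K4me3 table for 198 unlisted peaks (11.2%), against 95.7% of listed peaks.

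Peaks at either edge of the rule varied in tags. Just inside 1000 bp were Mir6900 (-1000 bp, 3.46 mean tags), Zc3h14 (-999 bp, 9.91 tags) and Oxt (-999 bp, 7.85 tags). Just outside were Dlx2 (1001 bp, 288 tags), Hid1 (1002 bp, 8.95 tags) and Tspan32 (1002 bp, 6.1 tags). Closest to a listed H3K4me3 peak without sharing a base were Cnp, at 12 bp, and Csrnp1 and Mir7091, at 46 bp each. Rtn2, Plagl1 and Klhl10 shared the fewest bases with one and so count as listed.

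A small number of unlisted peaks were strong. Only 203 (11.5%) averaged 20 tags or more, against 9303 listed peaks (94.8%), and these held 55.1% of all tags in unlisted peaks. The 15 with at least 100 mean tags, a bound chosen after the values were seen, were Mdm2, Cwc22, Fam129b, Irs1, Enc1, Itpripl2, 2010003K11Rik, Tmem119, Pear1, Acsl1, Sik1, Spef1, Zc3h12a, Wnt5b and Bag3. All 15 were above Input in each of the 6 libraries, with log2 ratios of 2.77 to 3.95. The nearest listed H3K4me3 peak was 2029 to 664468 bp away, and of these genes Wnt5b had an entry elsewhere in the H3K4me3 table. In shLuc cells 13 of the 15 had an RNA level of at least 5 on the log2 scale of normalized tags per kb, and the 15 spanned 0.46 to 13.21.

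Mdm2, which encodes the ubiquitin ligase that degrades p53, had the most tags (chr10:117146769-117148328, mm9, centre 266 bp downstream of the start). Tags were 3106.7 and 1371.48 at day 0, 2643.01 and 3089.87 at 4 hours and 4863.99 and 2011.57 at day 2, against 310.59 in Input. Cwc22, a splicing factor, had 1851.34 and 784.6 at day 0, 1371.75 and 1635.36 at 4 hours and 2446.75 and 1015.06 at day 2, against 191.75 in Input (chr2:77783633-77784529). Both had far more Input than any other unlisted peak, the next highest being 34.21, and their times overlapped. The 2 peaks held 18.2% of all tags in unlisted peaks. Both their tags and their Input were high, and the part of Input in the tags was not tested. Their log2 ratios to Input of 3.19 and 2.98 were within the range of the other strong peaks. RNA of Mdm2 averaged 13.21 and that of Cwc22 10.61 in shLuc cells.

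Strong peaks also lay at genes of insulin signalling and lipid use. Irs1, the docking protein of the insulin receptor, had 260.44 and 143.74 tags at day 0, 329.96 and 131.76 at 4 hours and 367.69 and 254.35 at day 2, against 19.81 in Input (chr1:82286673-82289823). Acsl1, which activates long-chain fatty acids, had 163.87 and 65.9 at day 0, 205.18 and 95.59 at 4 hours and 204.27 and 138.38 at day 2, against 13.5 in Input (chr8:47555273-47557213). At both genes every library stood above Input and the times overlapped. Fam129b had the widest peak of all, with 391.14 and 203.96 tags at day 0, 419.57 and 346.19 at 4 hours and 528.84 and 403.55 at day 2, against 34.21 in Input (chr2:32729338-32734288, 4950 bp). Sik1, a kinase induced by cAMP, averaged 141 tags, and Zc3h12a, a ribonuclease that degrades cytokine transcripts, averaged 131.

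**Figure D2:**
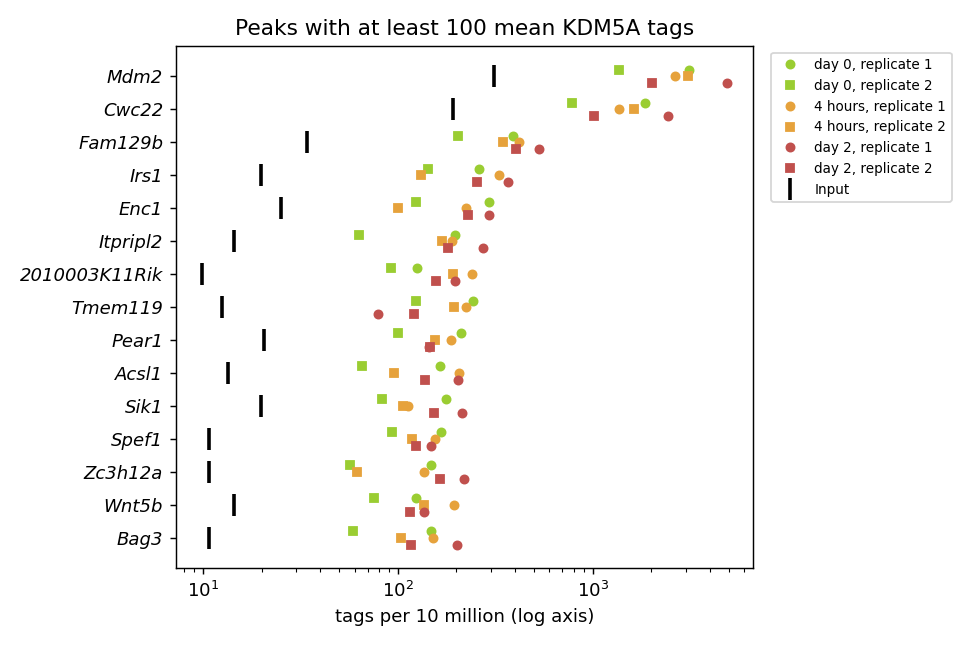
KDM5A tags (scaled as in the text) on a log axis at the 15 unlisted peaks with at least 100 mean tags, 1 point per library coloured by time, with the Input library as a vertical bar. Every library is above Input at all 15 peaks, and Mdm2 and Cwc22 stand apart in both KDM5A and Input.

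By ratio to Input, the leading peaks with at least 20 mean tags were at other genes. The promoter of 1700055N04Rik had 18.53 and 13.07 tags at day 0, 15.91 and 28.42 at 4 hours and 61.28 and 45.61 at day 2, with no Input read (chr19:3957585-3959818). Both day 2 libraries were above the others there, and its RNA averaged -0.67 in shLuc cells. Gpr137b, which encodes a lysosomal membrane protein, had 66.33 and 32.38 tags at day 0, 54.43 and 36.17 at 4 hours and 56.74 and 37.88 at day 2, against 0.9 in Input, and the times overlapped. Dll3, an inhibitory Notch ligand, had a log2 ratio of 4.40, Scgb1c1 of 4.11, 2010003K11Rik of 3.95, Mettl7b of 3.87, Mgat1 of 3.74, Col18a1 of 3.61, and Tmem119 and Mtmr7 of 3.60. The value of Mtmr7 rests on 1 library, with 186.12 tags in the first day 2 library, which is 94.4% of its tags. In 5 of the 203 peaks 1 library held most of the tags, and the other 4 were Npm2 (83.7%), Mir1957b (55.6%), Ankmy1 (55.1%) and Mir7091 (51.5%).

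The genes at unlisted peaks differed in kind from those at listed peaks. Protein-coding genes made up 79.7% of unlisted and 95.8% of listed peaks, and lncRNA genes 9.09% and 2.65%. Unnamed clone genes (Rik, Gm and the like) accounted for 13.9% and 5.34%. Genes of several other tissues appeared among the unlisted peaks, and for some of these lists hardly among the listed ones. Olfactory receptors had 10 unlisted and 0 listed peaks, keratins 10 and 1, muscle genes 7 and 1, haematopoietic and macrophage genes 8 and 1, germline genes 5 and 0, epithelial genes 3 and 0, and liver genes 2 and 0. Other such lists were closer in number of peaks but still made up a larger share of the unlisted ones. Ion channel subunits had 26 and 28 (1.48% of unlisted and 0.285% of listed peaks). Neuronal genes had 3 and 2 (0.17% and 0.0204%), and endothelial genes 3 and 3 (0.17% and 0.0306%). These counts carry no test, and they stand beside 1761 unlisted and 9812 listed peaks. The share of each list among all annotated genes was not computed. The counts therefore compare unlisted with listed peaks only and do not show that unlisted peaks favour such genes.

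Tags at most of these lists were near or below the median of 6.08 over all unlisted peaks. The median was 3.89 tags for olfactory receptor genes, 3.95 for keratins, 3.72 for haematopoietic genes and 4.64 for germline genes. It was above 6.08 for endothelial genes (6.27), muscle genes (8.49) and the 3 peaks of neuronal genes (13.4). Cd68, a lysosomal glycoprotein of macrophages, was the highest of the haematopoietic list with 50.1 mean tags, Krt80 of the keratins with 35.1, Tubb3 of the neuronal list with 21.0 and Elf3 of the epithelial list with 28.6. Some other lists made up a smaller share of unlisted than of listed peaks. Cell cycle genes had 1 unlisted and 45 listed peaks (0.0568% and 0.459%), and oxidative phosphorylation genes 0 and 18 (0% and 0.183%). Ribosomal protein genes had 4 and 52 (0.227% and 0.53%), and numbered zinc finger genes 10 and 305 (0.568% and 3.11%). Genes of KDM5, H3K4 methyltransferases and Polycomb had 0 and 26 (0% and 0.265%).

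Genes of fat cells and of the matrix were on both sides. Of the adipocyte list, 8 unlisted and 13 listed peaks were found (0.454% of unlisted and 0.132% of listed peaks). The unlisted genes were Acsl1, Slc2a4, Apoe, Lep, Tshr, Gpd1 and Cfd. Slc2a4, the insulin-regulated glucose transporter, had 49.75 and 18.18 tags at day 0, 36.85 and 51.67 at 4 hours and 63.55 and 68.03 at day 2, against 4.5 in Input. Its times overlapped between day 0 and 4 hours, and both day 2 libraries were above the other 4. At Cfd, which encodes adipsin, the peak was at the edge of detection, with 8.5 tags in 1 day 2 library and 0 to 1.67 in the other 5. Preadipocyte and matrix genes had 8 unlisted and 24 listed peaks (0.454% and 0.245%), and Hox genes 6 and 11 (0.341% and 0.112%).

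RNA at the genes of unlisted peaks was low. The peaks name 1639 transcripts, of which 1091 are in the RNA table of 17515, and 69 of these are also named by a listed peak. Of the remaining 1022 transcripts, 596 reached a log2 value of at least 1 in at least 2 of 12 libraries (58.3%, 95% exact binomial interval 55.2% to 61.4%), against 7924 of 8080 transcripts of listed peaks (98.1%). The share was 59.3% among 8344 transcripts with no KDM5A promoter peak. The interval covers counting error only. The median level in shLuc cells was 0.94 for unlisted and 7.14 for listed peaks, with 2.03 for transcripts with no promoter peak. The medians of the 12 single libraries lay between 0.84 and 1.09 for unlisted and between 7.11 and 7.17 for listed peaks, so the classes were far apart in every library. A level of at least 5 was reached by 130 unlisted transcripts (12.7%) and 6636 listed ones (82.1%). Fewer cells with a transcript and less of it per cell cannot be told apart in these bulk samples.

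RNA was higher where an unlisted peak had more tags. Among transcripts of unlisted peaks the median level in shLuc cells was 0.34 below 5 tags, 0.94 at 5 to 10, 1.64 at 10 to 20, 1.51 at 20 to 50 (100 transcripts), 2.70 at 50 to 100 (12 transcripts) and 8.95 at 100 or more (15 transcripts). In the same ranges the listed medians were 1.36, 3.31, 3.46, 4.48, 5.94 and 7.45. Below 100 tags the listed median was the higher in every range, and at 100 tags or more the unlisted one was, on 15 transcripts that include Mdm2 and Cwc22. The bound for these strong peaks was chosen after values were seen, and no test was made.

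**Figure D3:**
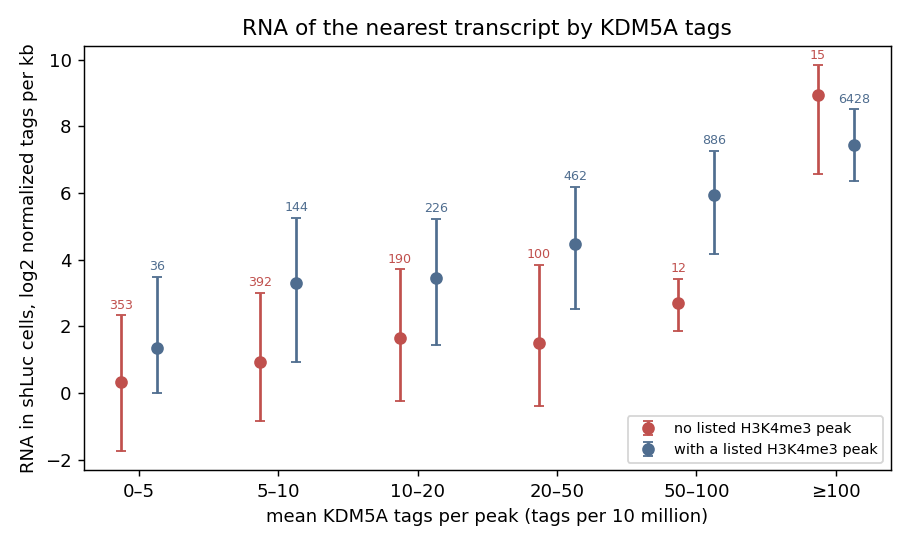
Median RNA level in shLuc cells (log2 normalized tags per kb, bars from the lower to the upper quartile) of the nearest transcript, by mean KDM5A tags of the peak, with the number of transcripts above each bar; a transcript with peaks in several ranges counts in each. The unlisted medians run from 0.34 to 2.70 below 100 tags and reach 8.95 at 100 or more.

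A few highly expressed genes stood behind unlisted peaks. Among transcripts that no listed peak names, the 8 highest included Mdm2, Fam129b, Cwc22 and Tmem119, Rpl36, a ribosomal protein gene, at 11.63, Rab7, a GTPase of late endosomes, at 10.46 and the clone gene Gm13826 at 10.13. The Rpl36 peak lies at -843 bp from the start and 324 bp from a listed H3K4me3 peak, and had 11.6 mean tags. The Rab7 peak had 3.68 mean tags and no Input read. The level listed for Mir5114 was 12.5, but a short RNA inside a longer transcript can take its reads, and polyA selection does not capture a hairpin, so levels of microRNA and small nucleolar RNA records are uncertain. The same holds for gene clusters with shared exons, such as Pcdhga3 (9.74), Pcdhga5 (9.78) and the Ugt1a genes.

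Few unlisted peaks changed in KDM5A between times. At 4 hours against day 0, limma called 2 higher and 0 lower of 1761 (0.114%), against 0.0606% of all 87525 peaks. At day 2 against day 0 it called 2 higher and 0 lower, against 0.173% of all peaks (0.136% higher, 0.0366% lower). At day 2 against 4 hours it called 4 higher and 9 lower (0.738%), against 0.607% of all peaks (0.123% higher, 0.483% lower). These shares rest on 2 to 13 peaks. Listed peaks were called at 0%, 0.0204% and 0.0917%. The counts at an unadjusted limma p under 0.05 were 78, 127 and 173 of 1761, beside 4577, 5547 and 9592 of all 87525 peaks. DESeq2 on the recovered reads called 0 in each comparison, while edgeR called 2 higher and 0 lower, 7 higher and 9 lower, and 7 higher and 19 lower. The median log2 change of unlisted peaks was 0.20, 0.55 and 0.38 in the same comparisons, against 0.18, 0.37 and 0.19 over all peaks. All peaks held 40.5% and 19.4% of tags at day 0, 38.1% and 26.8% at 4 hours and 42.5% and 32.2% at day 2. The part of these library differences in the median changes was not tested. After centring each library on all promoter peaks the calls were 3 higher and 0 lower, 0 and 0, and 3 higher and 25 lower. Shares over all peaks in these alternative fits are not given here. Without the first day 0 library 6 were called at 4 hours and 10 at day 2 against day 0, and without the first 4-hour library 46 at day 2 against 4 hours. Without the second 4-hour library both counts at 4 hours were 0, without the first day 2 library both counts at day 2 were 0, and without the second day 0 library both counts against day 0 were 1.

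The peaks called at 4 hours against day 0 were at Ankmy1 and Lefty1. Ankmy1 had 42.71 and 82.67 tags at 4 hours and 0 and 8.52 at day 0, with 6.81 and 9.28 at day 2 and 5.4 in Input. Both 4-hour libraries were above the other 4, which lay near Input. The log2 change was 4.29 (SE 0.75, limma adjusted p 0.0004), and the call was lost without the first day 0 library (2.67) and without the second 4-hour library (3.82). Lefty1, an inhibitor of Nodal signalling, had 17.59 and 23.25 tags at 4 hours and 0.98 and 0 at day 0, with no Input read, a log2 change of 3.92 (SE 0.92, limma adjusted p 0.0423).

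The peaks called at day 2 against day 0 were at Npm2 and Bcl2l10. Npm2, an oocyte chaperone of histones, had 249.67 and 6.96 tags at day 2 and 2.93 and 2.84 at day 0. The first day 2 library alone was high, and without it the log2 change was 1.03 rather than 3.52 (SE 0.70, limma adjusted p 0.00181) and the call was lost. Bcl2l10, a member of the Bcl-2 family, had 15.61 and 7.39 tags at day 0, 15.91 and 12.92 at 4 hours and 95.33 and 54.89 at day 2, against 4.5 in Input. Both day 2 libraries were above the other 4. The log2 change was 2.64 against day 0 (SE 0.61, limma adjusted p 0.0197) and 2.26 against 4 hours (SE 0.61, limma adjusted p 0.0426), and the call against day 0 was lost without the first (2.24) or second (3.03) day 2 library or the second day 0 library (2.14). For KDM5A, limma pooled the spread over all peaks completely, so the SE of a peak follows the trend at its level and not its own replicates.

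At day 2 against 4 hours, the peaks called higher were at Ppp1r1b, Gpt, Trak1 and Bcl2l10. Trak1, an adaptor for mitochondrial transport, had 97.6 and 60.3 tags at day 2 and 35.17 and 2.58 at 4 hours, with 19.51 and 10.79 at day 0 (log2 change 2.77, SE 0.61, limma adjusted p 0.00552). The day 2 libraries were the highest, and those of 4 hours were far apart. Gpt, alanine aminotransferase, had 45.39 and 30.15 at day 2 and 5.02 and 2.58 at 4 hours (3.03, SE 0.76, limma adjusted p 0.0216). The 9 called lower were at 4930447K03Rik, A730020M07Rik, 4933425B07Rik, Fam214b, Pla1a, Ankmy1, Mir1957b, Ifi205 and C1qtnf3, with changes of -2.23 to -3.79. C1qtnf3, an adipokine gene, had 0 and 2.32 tags at day 2 and 15.07 and 38.75 at 4 hours (limma adjusted p 0.0181). In all 9 both 4-hour libraries were above both day 2 libraries.

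**Figure D4:**
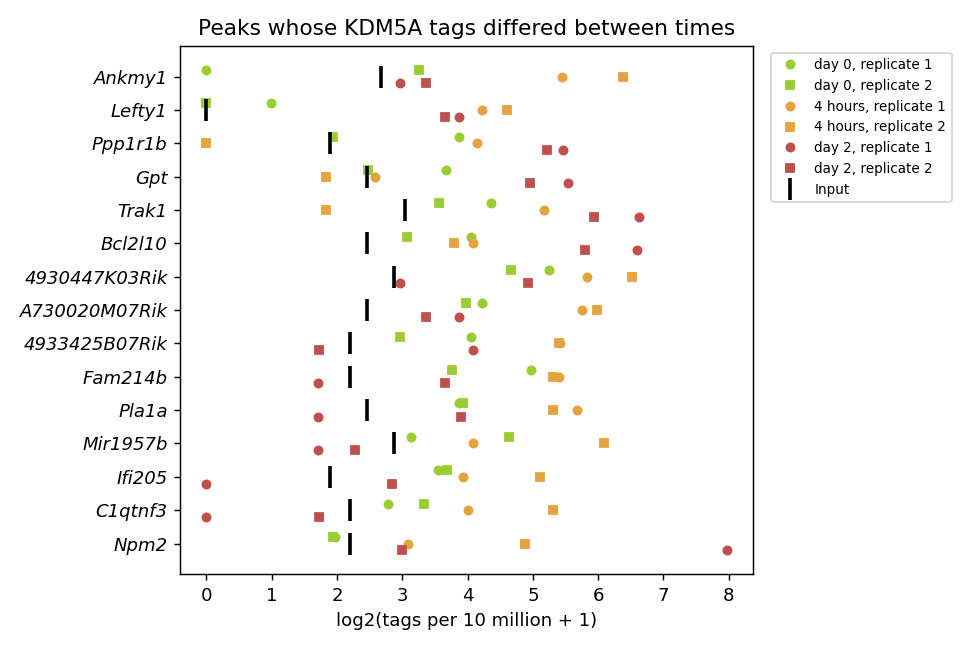
KDM5A tags, as log2(tags + 1), in each library at the 15 unlisted peaks called between any 2 times, with Input as a vertical bar. Both 4-hour libraries are above both day 2 libraries at the 9 peaks called lower at day 2, and at Npm2 a single day 2 library is high.

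Induction changed the RNA of many genes with unlisted peaks, though a smaller share than of all transcripts. In shLuc cells at 4 hours against day 0, 85 of the 596 tested transcripts were higher and 74 lower (26.7%), against 42.3% of all 13534 transcripts tested (20.7% higher, 21.6% lower). At day 2 against day 0, 121 were higher and 123 lower (40.9%), against 55.0% (27.1% higher, 27.8% lower). The median change was 0.06 and 0.00, against -0.02 and -0.01 over all transcripts. Transcripts of unlisted peaks were also lower in level, and the part of level in these shares was not tested. With the replicate number as a block the counts were 115 and 115 at 4 hours and 156 and 142 at day 2, with no share of all transcripts given for that fit.

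Acsl1, Cfd, Gpd1 and other fat-cell genes were among the increases at day 2. Acsl1 reached 12.68 and 13.46 at day 2, against 6.24 and 6.39 at day 0 (log2 change 6.76, SE 0.71, limma adjusted p 2.52e-05). Cfd had 8.86 and 9.90 at day 2 and 2.74 and 3.37 at day 0 (6.32, SE 0.66), and Gpd1, which supplies the glycerol backbone of fat, 7.59 and 8.70 and 2.59 and 2.78 (5.46, SE 0.54). The groups of all 3 genes were far apart. Of 5 tested adipocyte genes with unlisted peaks, 4 rose at day 2, the other being Apoe (-0.22, limma adjusted p 0.57). Of all 13534 tested transcripts, 27.1% were called higher. Slc2a4 rose by 3.57 (SE 0.40, limma adjusted p 3.6e-05), and Wfdc21, a secreted whey acidic protein, by 5.09 (SE 0.36, limma adjusted p 2.3e-06). KDM5A was not called changed at any of these genes.

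The naming rule took Ptprv, Cdsn, Mmp13 and Zbp1 for the decreases at day 2. Mmp13, a collagenase, fell to 4.09 and 3.58 at day 2, against 8.59 and 8.31 at day 0 (-4.61, SE 0.39, limma adjusted p 5.99e-06). Ptprv, a receptor-type phosphatase that is a transcribed pseudogene record in RefSeq, fell to 3.39 and 3.85, against 7.97 and 8.64 (-4.68, SE 0.26). Cdsn, corneodesmosin of the skin, fell by 4.67 and Zbp1, a sensor of nucleic acids, by 4.60. All 3 tested preadipocyte and matrix genes fell at day 2, as did 3 of 4 tested Hox genes and 1 of 2 tested interferon genes. Of all 13534 tested transcripts, 27.8% were called lower, and these few genes carry no test as lists.

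At 4 hours, Prg4, Csrnp1 and Tmem119 rose the most under the naming rule. Prg4, the joint lubricin, had 8.09 and 8.77 at 4 hours and 3.70 and 3.83 at day 0 (4.66, SE 0.39, limma adjusted p 1.56e-05). Tmem119, known from osteoblasts and microglia, had 13.09 and 12.89 at 4 hours and 9.83 and 9.85 at day 0 (3.16, SE 0.17), and was at 8.31 and 7.98 at day 2. Its KDM5A tags were 241.9 and 124.42 at day 0, 223.6 and 193.76 at 4 hours and 79.44 and 121.37 at day 2, and that difference was not called. Irs1 fell to 4.02 and 4.55 at 4 hours, against 7.20 and 7.76 at day 0 (-3.19, SE 0.29, limma adjusted p 2.89e-05), and its level at day 2 was 5.87 and 6.57. Sycp2, a protein of meiotic chromosome axes, fell by 2.71 and the record Mir546 by 2.10. The changes of Acsl1, Cfd, Gpd1, Wfdc21, Mmp13, Ptprv, Cdsn and Zbp1 at day 2 and of Prg4, Csrnp1, Tmem119, Irs1, Sycp2 and Mir546 at 4 hours held in each of 10 alternatives.

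On depletion of KDM5A, KDM5B and KDM5C, some genes with unlisted peaks changed. The 3 targeted transcripts fell at all 3 times in shKdm5ABC cells, with differences of -0.98 to -0.78 for Kdm5a, -0.73 to -0.65 for Kdm5b and -1.40 to -1.33 for Kdm5c on the log2 scale, all called. Of the 596 transcripts, limma called 10 higher and 6 lower at day 0 (2.68%), against 1.51% of all transcripts. At 4 hours 10 were higher and 4 lower (2.35%), against 1.44%, and at day 2 30 were higher and 9 lower (6.54%), against 9.00%. The share called higher was 1.68%, 1.68% and 5.03%, against 0.606%, 0.798% and 5.66% of all transcripts, on 10, 10 and 30 transcripts. The share called lower was 1.01%, 0.671% and 1.51%, against 0.901%, 0.643% and 3.34%. The median effect was 0.09, 0.10 and 0.09 for unlisted peaks, against 0.01, 0.00 and 0.00 over all. With the replicate number as a block the counts were 36 higher and 22 lower, 34 and 13, and 71 and 22. The shares of all transcripts in that fit are not given here, so these counts do not set unlisted peaks apart. Leaving out 1 library left 1 to 6 calls at day 0, whichever of the 4 it was, with 0 to 1 higher and 1 to 5 lower, and in none of these fits did higher calls outnumber lower ones. A fit of only the compared groups left 0 higher and 1 lower at day 0. At 4 hours 1 to 2 calls were left, with 1 to 2 higher and 0 to 1 lower. At day 2 leaving out the second shKdm5ABC library left 27 higher and 7 lower, leaving out the first shLuc library left 18 and 1, and leaving out either other left 7 and 0, so higher calls outnumbered lower ones in all 4 fits. At any time 41 were called higher and 16 lower, 3 were higher at all 3 times and 0 lower at all 3.

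The 3 higher at all times were Igfbp6, Apoc1 and Spats1. Igfbp6, which binds the growth factor IGF2, had 7.15 and 6.69 in shKdm5ABC cells and 5.49 and 5.75 in shLuc cells at day 0, 7.39 and 7.52 against 5.81 and 5.76 at 4 hours, and 8.86 and 8.87 against 7.09 and 6.31 at day 2. The groups did not overlap at any time, and the difference was 1.30, 1.67 and 2.17 (SE 0.24 each, limma adjusted p 0.0285, 0.0118 and 0.00167). Its KDM5A peak had 80.5 mean tags and lies 245 bp from a listed H3K4me3 peak. Apoc1, an apolipoprotein, had 6.18 and 6.20 in shKdm5ABC cells and 4.78 and 4.66 in shLuc cells at day 0, a difference of 1.46 (SE 0.22), with 1.29 at 4 hours and 0.87 at day 2. The neighbouring Apoe was higher by 1.27 at day 2 (SE 0.30, limma adjusted p 0.0289), and its differences of 1.05 and 0.86 at day 0 and 4 hours were not called. Spats1, a testis gene, was higher by 1.14, 1.51 and 1.13 (SE 0.18 each).

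Other genes were higher at day 2. Plekha6 had 6.06 and 5.31 in shKdm5ABC cells and 2.68 and 1.95 in shLuc cells (3.37, SE 0.39, limma adjusted p 0.00173). Ptprv had 6.30 and 6.27 in shKdm5ABC cells and 3.39 and 3.85 in shLuc cells (2.66, SE 0.26, limma adjusted p 0.0014). The groups were apart at both genes. Tmem119 had 9.80 and 9.47 in shKdm5ABC cells and 8.31 and 7.98 in shLuc cells (1.49, SE 0.17, limma adjusted p 0.00167). Among the 15 strong peaks, Sik1 (0.85) and Pear1 (0.87) were also higher at day 2, and Itpripl2 was lower at day 0 (-0.89) and 4 hours (-0.76). Jund, a subunit of AP-1, was higher by 1.10 at day 2 (SE 0.18, limma adjusted p 0.00748). Mmp3, a stromelysin, was higher by 1.11 at 4 hours and 1.08 at day 2.

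Cd68 was higher early. It had 5.93 and 5.76 in shKdm5ABC cells and 4.45 and 4.25 in shLuc cells at day 0, 5.75 and 5.50 against 4.62 and 4.07 at 4 hours, and 4.72 and 4.59 against 4.85 and 4.39 at day 2. The groups were apart at day 0 and 4 hours and overlapped at day 2, with differences of 1.50, 1.28 and 0.04 (SE 0.24 each, limma adjusted p 0.0144, 0.0334 and 0.947). Of 5 macrophage markers, Cd68 was the 1 called in this comparison. Lyz2 differed by 0.42, 0.05 and 0.19 and Csf1r by 0.75, 0.11 and 0.47, and the defining markers Adgre1 (at most -4.55) and Ptprc (at most -5.34) were near 0 tags in every library. The summed level of all 5 was 105 to 111 tags per kb in shKdm5ABC cells and 54.7 to 61.4 in shLuc cells at day 0, 90.7 to 94.7 and 54.2 to 69.7 at 4 hours, and 34.2 to 48.3 and 28.4 to 51.0 at day 2. Without Cd68 it was 50.1 to 50.7 in shKdm5ABC cells and 32.8 to 42.4 in shLuc cells at day 0, 36.9 to 49.5 and 37.4 to 45.1 at 4 hours, and 10.1 to 22.0 and 7.47 to 22.2 at day 2.

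Genes lower on depletion included Cdsn, Rsad2 and Zbp1. Cdsn had 4.59 and 5.43 in shKdm5ABC cells and 8.26 and 9.09 in shLuc cells at day 0, and 5.34 and 5.63 against 8.50 and 8.74 at 4 hours. The groups were far apart at both times and overlapped at day 2, with differences of -3.67, -3.14 and -0.41 (SE 0.51 each, limma adjusted p 0.00867, 0.0193 and 0.68). Rsad2, the antiviral enzyme viperin, had 1.73 and 1.25 in shKdm5ABC cells and 4.79 and 5.07 in shLuc cells at day 0 (-3.44, SE 0.31, limma adjusted p 0.00164). Zbp1 was lower at day 0 (-2.06, SE 0.36, limma adjusted p 0.024), and Tgm2, a transglutaminase, and Wfdc21 were lower at day 2 (-1.67 and -1.65). Mmp13 was called lower, with -2.12, at 4 hours (5.50 to 6.26 in shKdm5ABC cells, 7.69 to 8.31 in shLuc cells) and called higher, with 1.69, at day 2 (4.97 to 6.08 in shKdm5ABC cells, 3.58 to 4.09 in shLuc cells), and the difference between these times was not tested. The 4-hour call of Mmp13 was lost whichever of the 4 libraries was left out (limma adjusted p 0.0701 to 0.214, differences of -2.50 to -1.74), with no filter on low values (0.076) and in a fit of only the compared groups (0.149). That of Cdsn at 4 hours was also lost whichever of the 4 was left out (limma adjusted p 0.0938 to 0.132, differences of -3.28 to -3.00), and at day 0 the call of Cdsn was lost without the second shLuc library (-3.25) or the first shKdm5ABC library (-3.24).

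With the replicate number as a block, the effect of depletion differed between day 2 and day 0 for 31 of the 596 transcripts. The share of all transcripts in that fit is not given here. In the main fit the effect differed for 2, Tmem119 and Rsad2 (0.336%, against 0.310% of all transcripts). Both calls were lost in 7 of 8 fits without 1 library.

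Most of these knockdown calls depended on the fit. The main fit, the fits of only the groups compared and those without 1 library had no block. With the replicate number as a block, the knockdown calls taken by the naming rule all held (limma adjusted p 8.81e-06 to 0.00824). Of those that the naming rule took by size, Ptprv at day 2 was the 1 that held in a fit of only the groups compared (limma adjusted p 0.0471, range over its alternatives 8.81e-06 to 0.0471). Ptprv, Plekha6 and Igfbp6 at day 2 held whichever of the 4 libraries was left out, while Cd68, Apoc1 and Igfbp6 at day 0 lost the call without any 1 of the 4, at differences of 1.07 to 1.60.

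**Figure D5:**
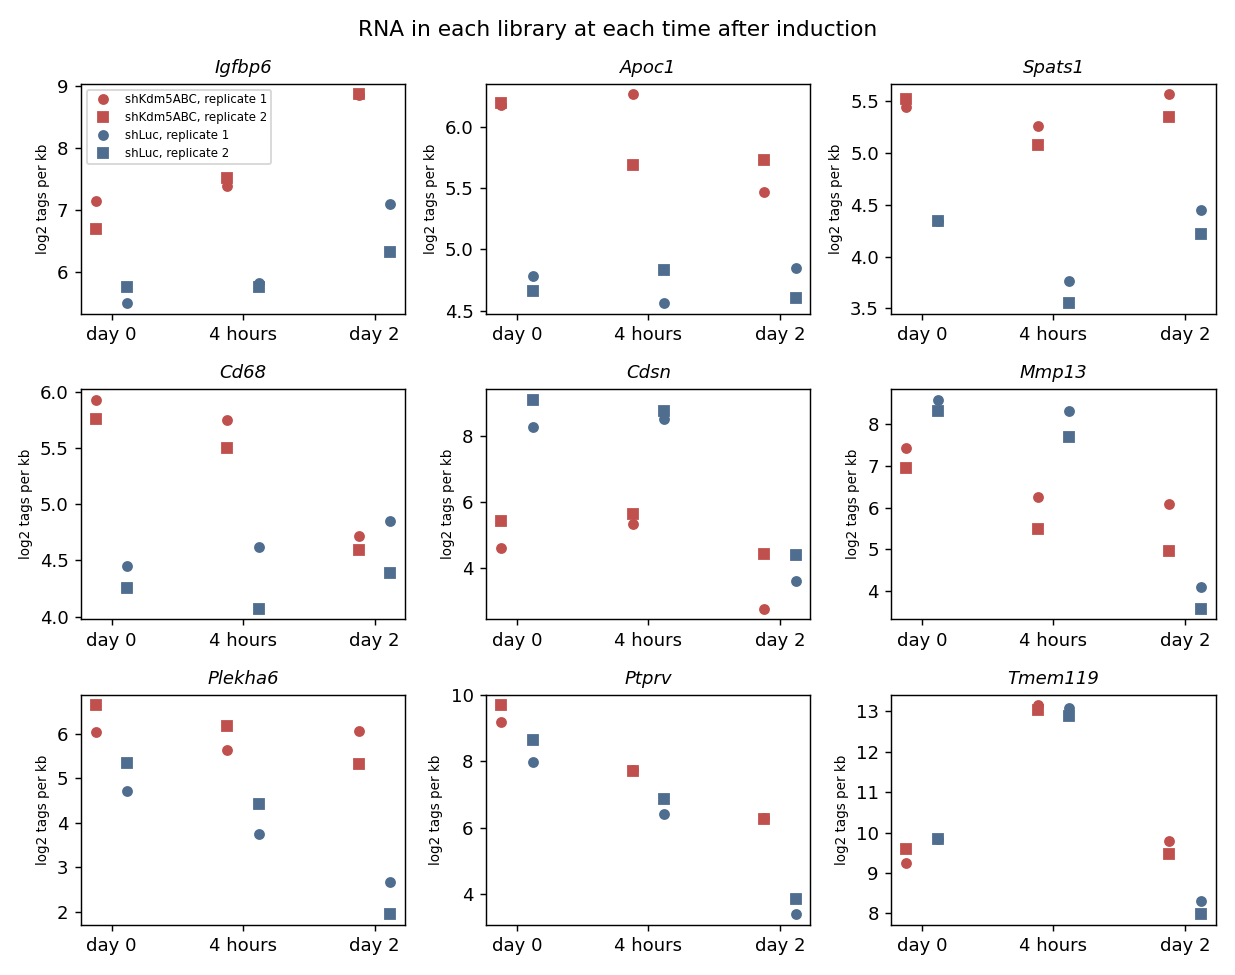
RNA (log2 normalized tags per kb) in each library of shKdm5ABC and shLuc cells by time, for 9 genes with unlisted KDM5A peaks. Igfbp6, Apoc1 and Spats1 are higher in shKdm5ABC cells at every time, Plekha6, Ptprv and Tmem119 differ most at day 2, and Cd68 and Cdsn differ at day 0 and 4 hours.

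KDM5C peaks at day 2 shared a base with a smaller share of unlisted than of listed peaks, but this turned on the overlap asked for. Of 1761 unlisted peaks, 77 shared a base with 1 of the 14827 KDM5C peaks (4.37%, 95% exact binomial interval 3.47% to 5.43%), against 1993 of 9812 listed peaks (20.3%, 19.5% to 21.1%) and 5.50% of distal peaks. Among peaks with at least 20 mean KDM5A tags the shares were 12.3% of unlisted and 21.2% of listed peaks, and below 20 tags 3.34% and 3.93%. The classes still differed in tags within these ranges, with medians of 30.2 for unlisted and 201 for listed peaks at 20 tags or more, and of 5.59 and 10.8 below. When at least 50% of the KDM5A peak had to be covered, the shares were 3.01% of unlisted and 3.10% of listed peaks, and 6.40% and 3.11% among those with at least 20 tags. Unlisted peaks were narrower, with a median width of 500 bp against 1767 bp.

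Unlisted peaks with much KDM5C included those of Scd3, Adig, Bcl2l10 and Acsl1. Scd3, a fatty acid desaturase, had 135.74 and 49.21 KDM5C tags, against 4.5 in Input, and Adig, the small lipid droplet protein adipogenin, 125.56 and 55.37, against 5.4. Bcl2l10 had 132.35 and 46.75 KDM5C tags, and Acsl1 had 101.81 and 45.52, against 8.1 in Input. Both libraries were well above Input at these 4 peaks, and the first library, the shallower with 2950000 against 8130000 reads, was the higher. KDM5A tags at Scd3 were 2.93 and 0 at day 0, 2.51 and 5.17 at 4 hours and 20.43 and 12.37 at day 2, and at Adig 3.90 and 3.98, 2.51 and 10.33, and 31.78 and 35.56. The day 2 libraries were the highest at both peaks, and neither change was called. The RNA of both rose at day 2, by 4.38 for Scd3 (SE 0.39, limma adjusted p 8.57e-06) and by 4.03 for Adig (SE 0.44, limma adjusted p 3.12e-05).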

How the data were processed

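The authors deposited KDM5A, H3K4me3 and KDM5C peak tables on mm9 with a signal per library and peak (tags scaled to a library of 10000000), and RNA as log2 normalized tags per kb for 17515 RefSeq transcripts, all from poly(A)-selected RNA. The submitters' processing notes name Bowtie2 0.12.8, Subread, DESeq2, STAR and HOMER with no further settings given here. RNA depth is unknown. Dividing KDM5A tags by the value of 1 read gave whole reads within 0.1 for 100% of values, with library totals of 3870000 to 17600000 reads. Replicates were deposited as separate libraries. All columns of per-sample values used belong to a sample of the series.

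A peak is unlisted when its distance to the start is at most 1000 bp and it shares no base with a listed H3K4me3 peak. The members and gene lists were chosen with earlier results of these data known. Ratios to Input used a pseudocount of 1. KDM5A was tested over all 87525 peaks on log2(tags + 1), and RNA over 13534 transcripts at log2 1 or more in at least 2 libraries, each in 1 limma fit (limma 3.58.1, R 4.3.3, mean-variance trend, Benjamini-Hochberg adjusted p under 0.05). A fold change on the log2(tags + 1) scale understates that of low peaks. For KDM5A the prior degrees of freedom were infinite beside 3 residual ones, and for RNA they were 4.07 beside 6. edgeR 4.0.16 and DESeq2 1.42.0 on the recovered reads were alternatives. The scripts were tested on simulated data. Names came from RefSeq for 17249 transcripts and from the peak tables for 148, and 118 stayed unnamed.

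Genes were named by a rule. It took unlisted peaks with at least 20 mean tags and the highest ratio to Input, called KDM5A and RNA changes whose groups did not overlap (the highest and lowest of each comparison, RNA of at least log2 3), the highest RNA levels, the most KDM5C tags, up to 3 genes per list and those at each threshold. Other named genes, such as the 15 strongest peaks, Mir29a, Lefty1 and Pear1, were chosen after their values were seen. RNA samples with the same replicate number deviated together in all 15 pairs of groups (r of 0.381 to 0.657). For KDM5A r was 0.047 to 0.333 over 3 pairs. The main RNA and KDM5A fits nonetheless had no block, so their SE and p-values ignore this pairing. A fit with the replicate number as a block is given as an alternative. Figures used matplotlib 3.10.9, and tables Python 3.11.15 with pandas 2.3.3 and scipy 1.17.1.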

Additional observations from a re-analysis of the deposited data

Results flagged for a closer look

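The effect of KDM5 depletion on RNA differed between times for 2 genes with unlisted KDM5A peaks, by a test of the difference itself that was added after the data were seen. For Tmem119 the effect at day 2 minus that at day 0 was 1.91 on the log2 scale (SE 0.24, limma adjusted p 0.0253). The shKdm5ABC libraries had 9.24 and 9.59 and the shLuc libraries 9.83 and 9.85 at day 0, and at day 2 they had 9.80 and 9.47 against 8.31 and 7.98. The KDM5A peak of Tmem119 averaged 164 tags.

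For Rsad2 the effect at day 2 minus that at day 0 was 3.3 (SE 0.44, limma adjusted p 0.0253), from -3.44 at day 0, -1.71 at 4 hours and -0.13 at day 2. Its transcript was near 0 in both groups at day 2, at -0.35 and -0.36 in shKdm5ABC cells and -0.13 and -0.32 in shLuc cells. Both calls were lost in 7 of 8 fits that left out 1 library, with limma adjusted p of 0.0519 to 0.121 for Tmem119 and 0.0519 to 0.132 for Rsad2, and held without the second shKdm5ABC library of day 2 (0.0238 and 0.0288). Both were also lost with no filter on low values (0.0576 each), and Tmem119 in a fit of only the groups compared (0.0657). With the replicate number as a block the adjusted p was 0.00106 for Tmem119 and 0.00174 for Rsad2 at the same sizes.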

How the results depend on the processing

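Within 500 bp of the start 1018 peaks were unlisted, within 250 bp 623, and with at least 20 mean tags 203. The median log2 ratio to Input was 0.97 with a pseudocount of 5, 2.83 with at least 20 tags and 2.08 to 2.25 without 1 library. The share of transcripts past the RNA minimum was 36.3% at log2 3, 74.0% with at least 20 KDM5A tags and 57.4% to 58.1% without 1 library. KDM5C overlap was 3.01% (3.10% for listed peaks) when at least 50% of the peak had to be covered, 1.59% with KDM5C peaks of at least 20 tags and 12.3% with KDM5A peaks of at least 20 tags.

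KDM5A calls at 4 hours against day 0 numbered 13 with the replicate number as a block, 1 with a pseudocount of 5, 0 without the mean-variance trend, 0 by DESeq2 and 0 to 6 without 1 library. At day 2 against day 0 they numbered 21 with the block, 5 with a pseudocount of 5, 1 among peaks with at least 20 tags, 0 when centred on promoter peaks, 0 without the trend, 16 by edgeR, 0 by DESeq2 and 0 to 10 without 1 library. At day 2 against 4 hours they numbered 40 with the block, 8 with at least 20 tags, 28 centred, 0 without the trend, 26 by edgeR, 0 by DESeq2 and 0 to 46 without 1 library. Unadjusted limma p-values under 0.05 numbered 78, 127 and 173 at unlisted peaks, beside 4577, 5547 and 9592 over all peaks.

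Knockdown calls at day 0 numbered 58 with the block, 10 at log2 3 or more, 1 with only the groups compared and 1 to 6 without 1 library. At 4 hours they numbered 47 with the block, 5 with no filter, 0 with only the groups compared and 1 to 2 without 1 library, and at day 2 93, 3 with only the groups compared and 7 to 34. Calls of a different effect at day 2 and day 0 numbered 31 with the block, 0 with no filter, 1 with only the groups compared and 0 to 6 without 1 library, with 0 in 7 of 8 such fits. Induction calls stayed within 118 to 125 and 204 to 219 without 1 library. A lone library of a group was assumed to vary like the other groups. The cause of these shifts was not tested. Shares over all peaks or transcripts under these alternatives are not given here, so the counts do not compare unlisted peaks with the rest. Of 353 values of 35 named calls under alternatives, 265 kept the call, 88 lost it and 0 changed direction. The named induction calls kept every value, so all 88 losses fell on KDM5A and knockdown calls. The comparison of promoter sequence without peaks near a listed H3K4me3 peak is void, since 958 of 1447 genes (66.2%) had a window. The alternatives of the difference between times, and leaving out genes with an entry in the H3K4me3 table, were chosen after seeing the data.

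With a median of 35 reads per unlisted peak over 6 libraries, counting error is large and small changes in KDM5A were not detectable at this depth. With 1 Input library, enrichment has no replicate.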
